A study of Homo sapiens with 8 samples.

Results

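The histone genes described here are those named HIST1 to HIST4 on the array. They were chosen by name alone and comprised 70 gene names measured by 84 probes, of 50599 probes on the array. By type, 6 probes measured linker histones (H1), 20 measured H2A, 25 H2B, 14 H3 and 19 H4. The HIST1 cluster on chromosome 6 held 65 of these probes, HIST2 on chromosome 1 held 15, HIST3 held 3 and HIST4 held 1.

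RNA was measured in FT293 cells, a HEK293 line (human embryonic kidney cells) in which the Flp-In T-REx system places a transgene at a fixed genomic site and tetracycline switches it on. All lines therefore carried a GFP transgene and all were treated with tetracycline, sampled on day 3. GFP-expressing cells made GFP alone, and the other lines made GFP fused to HuR, TIA1 or TIAR, which are RNA-binding proteins that control mRNA splicing, stability and translation. Each line was represented by 2 one-colour arrays, and nothing in the labels says that these came from separate cultures, so p-values measure only the spread between these arrays. The source label of TIA1 2 names GFP-TIA2 where its title names GFP-TIA1, and the array was kept as TIA1 by its title. Where a histone result turns on it, this is said. Genes outside the HIST clusters, described at the end, were not examined without it. In bulk RNA, a lower signal can come from fewer cells that express a gene or from less RNA per cell, and these cannot be told apart.

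Nucleosomes wrap DNA around a core of H2A, H2B, H3 and H4, and linker histone H1 binds the DNA between cores. Most core histone genes lie in clusters and are transcribed in S phase, when newly copied DNA needs histones. Their mRNAs end in a conserved stem-loop, bound by SLBP, in place of a poly(A) tail. RNA was labelled with a low-input kit in which priming on poly(A) is the standard procedure, so that the signal of a stem-loop mRNA may count a minor polyadenylated form; the share of such forms was not measured.

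Values below are log2 processed signals minus the log2 75th percentile of the same array. The software of the scanner marks spots that are well above background. Of the 84 histone probes, 70 were so marked on all 8 arrays, and 3 on none. A further 6 were marked on the GFP 1 array alone, and the remaining 5 on some arrays of several lines. GFP 1 stood apart, with 86.1% of all probes well above background and with a local background that averaged 83.2 units of intensity, where the others had 35.7 to 41.5. Thus, HIST1H2AA, the gene of a testis H2A, read -0.30 on GFP 1 and between -5.33 and -4.06 on the 7 other arrays. No histone spot was saturated (0 on each array). The brighter TIAL1 probe for TIAR read 4.87 and 4.98 in TIAR-expressing cells and between 1.63 and 2.52 elsewhere. A dimmer TIAL1 probe did not show this, with -4.12 and -3.85 in TIAR-expressing cells and between -4.36 and -3.45 elsewhere. The TIA1 and ELAVL1 probes were not highest in TIA1- and HuR-expressing cells. Of 6 genes known from HEK293 cells, 5 had a probe well above background on all 7 arrays other than GFP 1, and of 6 genes that define other cell types, 1 did (PTPRC).

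Pairs of lines were compared with limma over the probes that stood well above background on the 2 arrays of either line. Calls required a 2-fold difference together with an adjusted p (Benjamini-Hochberg) under 0.05. With TIA1 relative to HuR, 8.51% of all tested probes were called higher and 4.9% lower. Among histone probes, 3 of 74 were called higher and 0 lower, and the methods' t-test called 0 lower. At an unadjusted p under 0.05 from limma and any fold, 21 were higher and 4 lower. These were 33.8% of the histone probes, where 52.4% of all probes passed in either direction. Between TIAR- and HuR-expressing cells, 7.07% of all probes were called higher and 3% lower with TIAR, and among histone probes 2 of 75 were higher and 4 lower. Between TIAR- and TIA1-expressing cells the shares of all probes were 1.25% higher and 1.11% lower. Of 75 histone probes 4 were called lower and 0 higher, and the methods' t-test called 0 higher. At an unadjusted p under 0.05 from limma and any fold, 1 was higher and 21 lower. These were 29.3% of the histone probes, where 23.8% of all probes passed in either direction. Histone probes were thus called less often than all probes in TIA1 versus HuR and among those higher with TIAR. Among those lower with TIAR, both counts of 4 include the same 3 probes, of HIST1H4J, HIST1H4K and HIST1H2AM. These counts are small and not independent, so they are not a result about the histone genes as a set. The differences from all probes were not tested.

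Against GFP-expressing cells limma called 0 histone probes and 0 of all probes in either direction, a share of 0%, in each of the TIA1, TIAR and HuR comparisons. At an unadjusted p under 0.05 there were 6 of 74 histone probes with TIA1, 8 of 75 with TIAR and 6 of 74 with HuR, and for all probes 21.6%, 16.4% and 17.2%. The methods' t-test, unadjusted and with the 2-fold limit called 0, 3 and 1 histone probes. The spread between the 2 GFP arrays was wide, and the counts of histone probes called changed with the GFP array left out. The shares of all probes called in the t-test and in the fits without a GFP array were not counted.

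The 3 histone probes that were lowest in TIAR relative to HuR belonged to a short stretch of the HIST1 cluster. HIST1H4K and HIST1H4J encode H4, and HIST1H2AM encodes an H2A. HIST1H4K (NM_003541, now H4C12) was measured by a probe at the 3′ end of its transcript (hg19 chromosome 6 from 27798954 to 27799013, minus strand) and by a probe further upstream (27799089 to 27799148), with 75 bases between them. The last 30 bases of the 3′-end probe contain the stem-loop, in capitals:
HIST1H4K, 3′-end probe: ctatcaacaaaaGGCCCTTTTTAGGGCCcc
The upstream probe, which the array design also assigns to HIST1H4J and HIST1H4I, has the sequence:
HIST1H4K, upstream probe: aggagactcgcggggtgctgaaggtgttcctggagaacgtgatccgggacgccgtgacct

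The 3′-end probe of HIST1H4K read -0.71 and -0.15 on the GFP arrays, -1.26 and -1.65 on the HuR arrays, -1.54 and -1.02 on the TIA1 arrays and -6.68 and -6.05 on the TIAR arrays. The TIAR values lay far below all others and were not well above background on either array. Folds were therefore taken against the dimmest detected probe of each TIAR array, which is not a detection limit. Taken in this way, HIST1H4K was 20.1-fold lower with TIAR than with HuR (adjusted p = 0.0040 from limma on the measured values). It was 22.8-fold lower than with TIA1 (adjusted p = 0.017). It was 41-fold lower than with GFP, a difference that limma did not call (adjusted p = 0.12). With all 8 arrays in a single fit, the adjusted p for TIAR versus GFP was 0.0024. The call against TIA1 was lost when any 1 of the 4 arrays was left out, and its measured log2 fold change stayed between -5.40 and -2.92 under the alternatives. That call was also lost without the filter on dim probes, with the replicate number as a block and in the methods' t-test after adjustment. The call against HuR was lost in the methods' t-test alone, unadjusted and adjusted. The measured log2 fold change against HuR ran from -5.22 to -2.77 under the alternatives.

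The upstream probe of HIST1H4K did not show a difference of that size. It read 1.94 and 2.11 with GFP, 1.88 and 1.81 with HuR, 1.57 and 2.18 with TIA1, and 0.71 and 1.48 with TIAR. Both TIAR values were the lowest, but the spread between replicates was wide, and the log2 fold change against HuR was -0.75 (standard error 0.28, adjusted p = 0.11 from limma).

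HIST1H4J (NM_021968, now H4C11; chromosome 6 from 27792176 to 27792235, plus strand) had a single probe of its own. Its end shares a run of 37 bases with the 3′-end probe of HIST1H4K, so each may also bind the RNA of the other gene. The shared bases are in capitals in 30 bases of each:
HIST1H4J probe, bases 31 to 60: GGTGGTTGAGCGTCCCTTTCTATCAAtaaa
HIST1H4K 3′-end probe, bases 8 to 37: TTTCGGTGGTTGAGCGTCCCTTTCTATCAA
The HIST1H4J probe read 0.26 and 0.67 with GFP, -0.25 and -0.56 with HuR, -0.50 and -0.23 with TIA1, and -2.67 and -2.34 with TIAR. As for HIST1H4K, the TIAR values stood below those of the other 6 arrays without overlap. HIST1H4J was 4.27-fold lower with TIAR than with HuR (log2 fold change -2.10, standard error 0.18, adjusted p = 0.0064 from limma) and 4.40-fold lower than with TIA1 (adjusted p = 0.024). The first call was lost without HuR 1 and the second without any 1 of its 4 arrays, with log2 fold changes from -2.26 to -1.73 and from -2.30 to -1.87 under the alternatives. The first was also lost in the methods' t-test, unadjusted and adjusted. The second was also lost in that test after adjustment, without the filter on dim probes and with the replicate number as a block.

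HIST1H2AM (NM_003514, now H2AC17, minus strand) lies further along and again had 2 probes, which are separated by 10 bases. The last 30 bases of the 3′-end probe (27860507 to 27860566) and the whole upstream probe (27860577 to 27860636) show that they differ in sequence and report different stretches of the same transcript:
HIST1H2AM, 3′-end probe: aagggctgaactttaaaaatgtaaacttac
HIST1H2AM, upstream probe: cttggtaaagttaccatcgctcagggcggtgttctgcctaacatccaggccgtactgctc
The 3′-end probe read -0.35 and -0.83 with GFP, -1.22 and -1.21 with HuR, -1.33 and -0.99 with TIA1, and -5.10 and -5.32 with TIAR, where 1 of the 2 arrays was well above background. Its TIAR values were again below all others. Its log2 fold change was -4.0 against HuR (standard error 0.12, adjusted p = 0.0029 from limma) and -4.05 against TIA1 (standard error 0.17, adjusted p = 0.011), of which the second call was lost without either TIAR array, at log2 fold changes from -4.22 to -2.41 under the alternatives. The upstream probe, in contrast, read 2.55 and 3.08 with TIAR, within the range of 2.89 to 3.58 of the other arrays or just below it, and differed from HuR by -0.21 (adjusted p = 0.46).

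**Figure D1:**
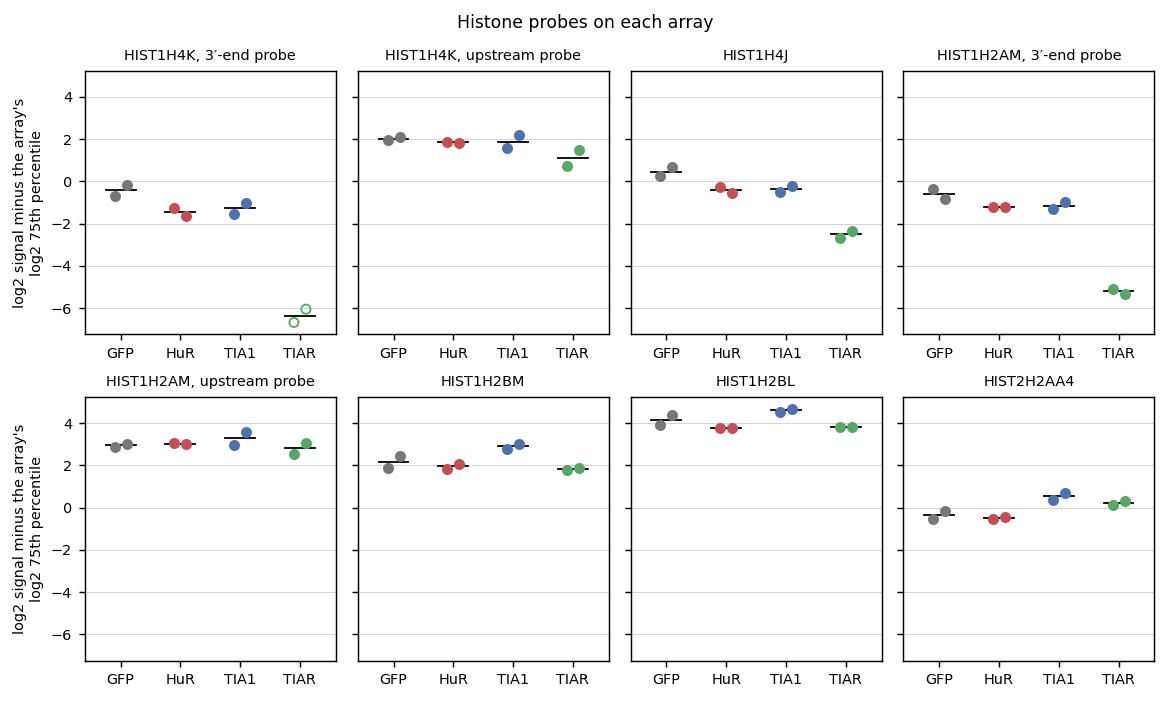
Log2 signal relative to the 75th percentile of the array (y axis) for 8 histone probes in GFP-, HuR-, TIA1- and TIAR-expressing cells (x axis). Each point is an array, the bar is the mean of the 2 arrays, and open points mark a line whose 2 arrays both read close to background. The 3′-end probes of HIST1H4K and HIST1H2AM and the HIST1H4J probe were low with TIAR, whereas the upstream probes of the first 2 genes were not separated in that way.

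The stretch from HIST1H2BL to HIST1H2BO (chromosome 6 from 27775286 to 27861647, 86.4 kb) held 20 histone probes. Besides the 3 probes that were strongly lower, 16 were tested and 1, for HIST1H1B, was not. These 16 had log2 fold changes between -1.17 and 0.56 in TIAR versus HuR, and 0 were called. Against TIA1 they ranged from -1.07 to -0.02, and 1 was called, HIST1H2BM. At any fold, HIST1H3H was lower (stem-loop probe, log2 fold change -0.98, adjusted p = 0.011 from limma) and HIST1H2AL higher (0.56, adjusted p = 0.028) against HuR. HIST1H2AK, between HIST1H4K and HIST1H2AM, differed from HuR by -0.26 (adjusted p = 0.38 from limma) and HIST1H4L by -0.42 and -0.52 with its 2 probes.

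**Figure D2:**
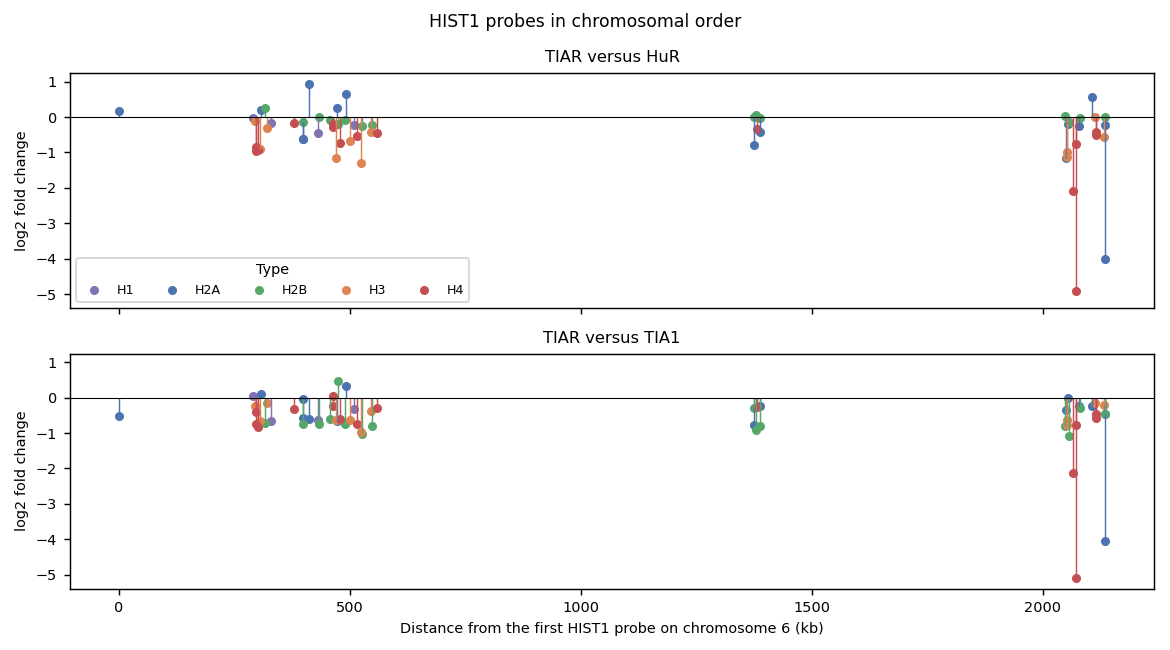
Log2 fold change of HIST1 probes (y axis) against the distance in kb from the first HIST1 probe on chromosome 6 (x axis), for TIAR versus HuR (top) and TIAR versus TIA1 (bottom), coloured by histone type. Probes that were not tested are not drawn. The 3 probes of HIST1H4J, HIST1H4K and HIST1H2AM fell by 2.10 or more on the log2 scale against HuR, and the probes around them stayed between -1.17 and 0.56.

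The promoters of the 3 genes were compared because the 3 probes were low together with TIAR. The upstream probes of HIST1H4K and HIST1H2AM were not called, and a role of the promoters was not tested. The 120 bases before the transcription start are given from RefSeq (GRCh38.p14), with the TATA box (TATAAA), the CCAAT box (CCAAT) and the octamer (ATTTGCAT) in capitals where present:
HIST1H4J (chr6:27823972-27824091, plus strand): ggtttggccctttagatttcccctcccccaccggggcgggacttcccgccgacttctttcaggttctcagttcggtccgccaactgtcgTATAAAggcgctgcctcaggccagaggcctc
HIST1H4K (chr6:27831561-27831680, minus strand): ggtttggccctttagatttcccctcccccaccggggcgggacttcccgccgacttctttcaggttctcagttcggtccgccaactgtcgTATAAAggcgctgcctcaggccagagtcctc
HIST1H2AM (chr6:27893186-27893305, minus strand): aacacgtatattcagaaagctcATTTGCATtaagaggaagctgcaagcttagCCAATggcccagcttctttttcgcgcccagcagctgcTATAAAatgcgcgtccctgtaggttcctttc
The 300-base windows of HIST1H4J and HIST1H4K, which run from before the start to shortly after it, were identical at 295 of 300 positions compared without gaps (98.3%). HIST1H4K and HIST1H2AM matched at 83 of 300 positions, and the most similar of the other H4 promoters, that of HIST1H4F, at 100.

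A promoter was found for 62 of the 70 histone genes, and motifs were counted on both strands of the 300-base windows. The TATA box was present in 41 of the 62 histone promoters (66.1%) and in 12.0% of all 27305 promoters. The CCAAT box stood in all 6 H1, 15 H2A, 18 H2B and 11 H3 promoters, but in 3 of the 12 H4 promoters, against 35.7% of all promoters. The octamer, to which POU2F1 is known to bind, was held by 11 of 15 H2A and 14 of 18 H2B promoters, by 1 of 11 H3 and by none of the H1 and H4 promoters (0 of 6 and 0 of 12), against 1.80% of all promoters. The H1 box (AAACACA) was present in all 6 H1 promoters and in 5.76% of all promoters. These matches are a description of the letters and were not related to the signals by a test.

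HIST1H1C, HIST1H1D and HIST1H1E encode somatic linker histones that are common in dividing cells. HIST1H1C read 3.39 and 3.33 with HuR, 3.74 and 4.01 with TIA1, and 3.04 and 3.37 with TIAR, so that the TIA1 arrays were highest among these lines. The 4 tested H1 probes lay between -0.44 and -0.04 on the log2 scale in TIAR versus HuR, so all 4 were below 0. HIST1H1B and HIST1H1T, the latter a testis H1, were well above background on GFP 1 alone and were not tested.

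For H2B, most probes were moderately higher with TIA1 than with HuR, and most were also lower with HuR than with GFP. Of 20 tested H2B probes, 18 had a positive log2 fold change, with a median of 0.63 against 0.08 for all probes tested. Only 1 passed the 2-fold limit, but without that limit 14 of the 20 had an adjusted p under 0.05 from limma and a higher value with TIA1, where 24.2% of all probes were higher and 17.3% lower by this criterion. This criterion was added after the values were seen. The H2B median was -0.32 in HuR versus GFP, with 17 of 20 probes below 0, where 53.3% of all probes were. In TIA1 versus GFP it was 0.34, with 16 of 21 above 0, where 49.6% of all probes were below 0. Under the alternatives these medians ran from -0.48 to -0.16 and from 0.17 to 0.45. Relative to the median of all probes they ran from -0.55 to 0.19 and from 0.091 to 0.57, so that the sign in HuR versus GFP turned. All of these comparisons share arrays. HIST1H2BL, for example, read 3.79 and 3.76 with HuR, 4.55 and 4.67 with TIA1, 3.91 and 4.37 with GFP and 3.8 and 3.82 with TIAR. HIST1H2BM read 1.85 and 2.08 with HuR and 2.78 and 3.03 with TIA1. In both genes the TIA1 arrays were the highest of the 8.

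The median of the H2B probes stayed between 0.57 and 0.72 under the 11 alternatives of processing that give a median. The count of 14 rested on both HuR arrays, since it became 0 without HuR 1 and 1 without HuR 2, and was 15 and 12 without either TIA1 array. It was 3 without the filter on dim probes and 8 with all 8 arrays in a single fit. H2B genes are close copies of each other, and 2 of the HIST2H2BF probes and 1 of the HIST1H2BK probes are assigned to several genes by the array design, so the probes are not independent.

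With TIAR the H2B genes did not show this shift. Their median log2 fold change against HuR was -0.03, between -0.13 and 0.07 under the alternatives, and against TIA1 it was -0.73, with 17 of 21 probes below 0. HIST1H2BM, 1.78 and 1.89 with TIAR, was called lower than with TIA1 (log2 fold change -1.07, standard error 0.14, adjusted p = 0.041 from limma). This call was lost without any of the 4 arrays, without the filter on dim probes, with the replicate number as a block, with all 8 arrays in a single fit and in the methods' t-test after adjustment.

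For H3 and H4 the signal was lower with TIAR than with HuR. All 14 tested H3 probes and all 17 tested H4 probes lay below 0 in TIAR versus HuR, where 45.4% of all probes did. The H3 and H4 probes are not independent, since some are assigned to several genes by the array design and all rest on the same arrays. The medians were -0.62 for H3 and -0.52 for H4, with 0.05 for all probes, and remained below 0 under each of the 11 alternatives (-0.86 to -0.29 for H3, -0.82 to -0.26 for H4). Relative to GFP the shift was smaller and not limited to these types. In TIAR versus GFP the medians were -0.24 for H3 and -0.23 for H4, beside -0.69 for H1, -0.21 for H2A and -0.33 for H2B. Under the alternatives they ran from -0.52 to -0.092 for H3 and from -0.66 to -0.0026 for H4. The median of all probes itself ran from -0.36 to 0.23. Relative to it, the medians ran from -0.54 to 0.13 for H3 and from -0.61 to 0.13 for H4, so that both signs turned. In HuR versus GFP they were 0.28 for H3, with 11 of 14 probes above 0, and 0.10 for H4, with 13 of 17 above 0. Under the alternatives these medians ran from 0.059 to 0.52 for H3 and from 0.046 to 0.36 for H4. Relative to the median of all probes they ran from 0.020 to 0.81 for H3 and from -0.041 to 0.62 for H4. Between the 2 GFP arrays themselves, the median difference was 0.42 for H3 probes and 0.41 for H4 probes. In TIAR versus HuR, beyond HIST1H4J and HIST1H4K, a single H3 or H4 probe was called, that of HIST1H3F, which read 0.94 and 1.35 with HuR and -0.50 and 0.20 with TIAR (log2 fold change -1.30, standard error 0.29, adjusted p = 0.039 from limma). Its GFP values of 0.35 and 1.52 overlapped those of both lines, and the call was lost without either HuR array, without TIAR 1, without the filter on dim probes, with all 8 arrays in a single fit and in the methods' t-test. Without the fold limit, 2 H3 and 4 H4 probes were lower with TIAR, where 12.6% of all probes were lower and 18.1% higher.

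In TIA1 versus HuR, in contrast, H3 and H4 probes were centred near 0, with medians of -0.09 and -0.05. Both signs turned with the array left out, since without TIA1 1 the medians were 0.17 and 0.29, and without TIA1 2 they were -0.26 and -0.33. In TIAR versus TIA1, all 14 H3 probes and 16 of 17 H4 probes were below 0, with medians of -0.50 for both types. The size of these medians rested on single arrays, since they were -0.20 and -0.21 without TIA1 2, -0.20 and -0.24 without TIAR 1, -0.60 and -0.88 without TIAR 2 and -0.69 and -0.80 without TIA1 1. At any fold, 1.74% of all probes were higher and 1.75% lower in that comparison, and of histone probes 5 were lower and 0 higher. At an unadjusted p under 0.05 from limma, 1 histone probe was higher and 21 were lower, and 23.8% of all probes passed in either direction.

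**Figure D3:**
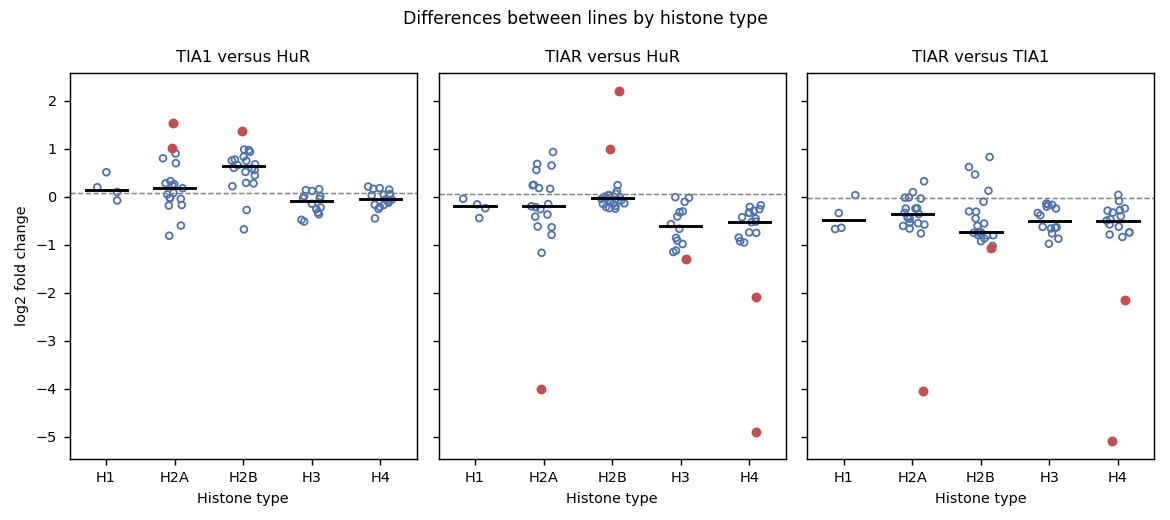
Log2 fold change of each tested histone probe (y axis) by histone type (x axis) in TIA1 versus HuR, TIAR versus HuR and TIAR versus TIA1. Filled points were called by limma, black bars are the medians of a type and the dashed line is the median of all probes tested. H2B probes centre at 0.63 in TIA1 versus HuR and at -0.03 in TIAR versus HuR, and H3 and H4 probes at -0.62 and -0.52 in TIAR versus HuR.

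H2A probes were mixed. In TIA1 versus HuR their log2 fold changes ran from -0.81 to 1.54 with a median of 0.18, a sign that turned under some alternatives (-0.13 to 0.49). HIST2H2AA4, whose probe also matches the neighbouring copy HIST2H2AA3, read -0.54 and -0.43 with HuR and 0.37 and 0.70 with TIA1, and was called higher (log2 fold change 1.02, standard error 0.15, adjusted p = 0.011 from limma). This call was kept under 5 of 13 alternatives and was lost, for example, with quantile normalization, without TIA1 2 and without either HuR array, at log2 fold changes from 0.85 to 1.19. HIST1H2AC had 3 tested probes. The one called higher with TIA1 (log2 fold change 1.54, standard error 0.13, adjusted p = 0.0038), which read -2.71 and -2.46 with HuR and -1.11 and -0.98 with TIA1, targets an Ensembl transcript (ENST00000314088) at 26138822 to 26138881, whereas the probes of NM_003512, at 26124403 and 26124461, differed by -0.60 and -0.04 and were not called.

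Of the HIST2 genes for H2B, HIST2H2BF was called higher against HuR with a dim probe on a long transcript (NM_001024599). That probe read -6.36 and -6.05 with HuR, where 1 of the 2 arrays was well above background, -5.28 and -4.37 with TIA1, and -4.23 and -3.76 with TIAR. The log2 fold changes were 2.21 with TIAR (standard error 0.21, adjusted p = 0.0074 from limma) and 1.38 with TIA1 (standard error 0.34, adjusted p = 0.037). Its brighter probes changed by 0.68 and 0.59 with TIA1 and by -0.19 and 0.04 with TIAR. Both calls of the dim probe were lost without either HuR array, and that with TIA1 also without TIA1 2, with log2 fold changes from 0.58 to 2.44 for TIAR and 0.38 to 1.84 for TIA1 under the alternatives. In HIST2H2BE a dim probe in the distal part of the transcript, read at -5.79 and -5.29 with HuR (1 of 2 arrays well above background) and -4.55 and -4.51 with TIAR, was called higher at a log2 fold change of 1.01 (adjusted p = 0.028), while its brighter probe changed by 0.12. That call was kept under 1 of 12 alternatives and was lost without any 1 of the 4 arrays.

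The probes of a gene thus often differed. Of the 10 histone genes with more than 1 tested probe in TIAR versus HuR, 6 had probes within 1 log2 unit of each other and 4 did not, namely HIST1H4K, HIST1H2AM, HIST2H2BF and HIST1H2AC. In HIST1H3H, HIST1H4A, HIST1H4D, HIST1H4L and HIST1H2BK the probes lay within 0.14 of each other. HIST1H3H, for example, differed by -1.12 with its upstream probe and by -0.98 with the probe that holds the stem-loop.

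**Figure D4:**
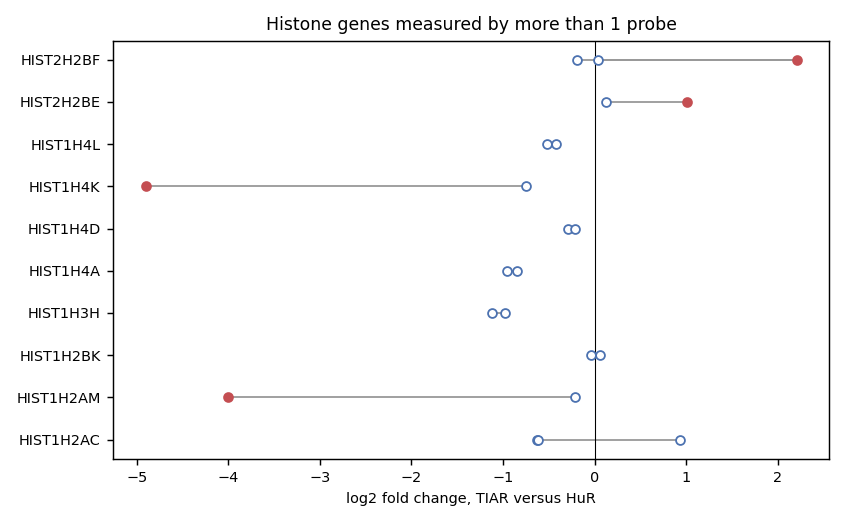
Log2 fold change in TIAR versus HuR (x axis) of the tested probes of each histone gene that had more than 1 (y axis). Filled points were called by limma and lines join the probes of a gene. HIST1H4K and HIST1H2AM have 1 probe each near or below -4.0 and another above -1.

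In all, 6 histone probes hold a stem-loop, found as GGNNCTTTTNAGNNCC on the probe's strand. They belong to HIST1H4K, HIST1H3H, HIST1H2AI, HIST1H2BE, HIST1H2BF and HIST2H3A, and 30 bases of some show how the stem-loop of HIST1H4K differs from that of the others, with the stem-loop in capitals:
HIST1H3H: atacccaaaGGCTCTTTTCAGAGCCaccca
HIST1H2AI: ggaaccaaaGGCTCTTTTCAGAGCCaccta
HIST1H2BE: aaacccaaaGGCTCTTTTCAGAGCCactca
All 6 of these probes lay below 0 in TIAR versus HuR, with a median of -0.92, and of the other 69 tested probes 53 did, with a median of -0.21. HIST1H2BE changed least, by -0.08, and HIST1H2AI by -1.17 with TIAR values of -1.48 and -0.27 that were far apart (adjusted p = 0.11 from limma). HIST1H4K alone of the 6 was called.

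The 2 arrays of a line were not equal for histone genes. Among the 70 probes well above background on all arrays, replicate 2 was higher than replicate 1 in 65 with TIA1, 65 with TIAR, 56 with GFP and 23 with HuR. For all 24959 such probes of the array these shares were 51.7%, 56.0%, 61.9% and 46.7%. The median difference was 0.34 with TIA1, 0.37 with TIAR, 0.36 with GFP and -0.06 with HuR, which can be set beside the medians of -0.62 and -0.52 between TIAR and HuR for H3 and H4. H4 probes differed by 0.65 between the TIA1 arrays and by 0.53 between the TIAR arrays, H3 probes by 0.51 and 0.43, and H2B probes by 0.12 and 0.21. The count of histone probes called in TIAR versus HuR changed with the array left out and was highest without TIAR 2. The share of all probes called in those fits was not counted. What part these differences had in the shifts of H3 and H4 was not tested.

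**Figure D5:**
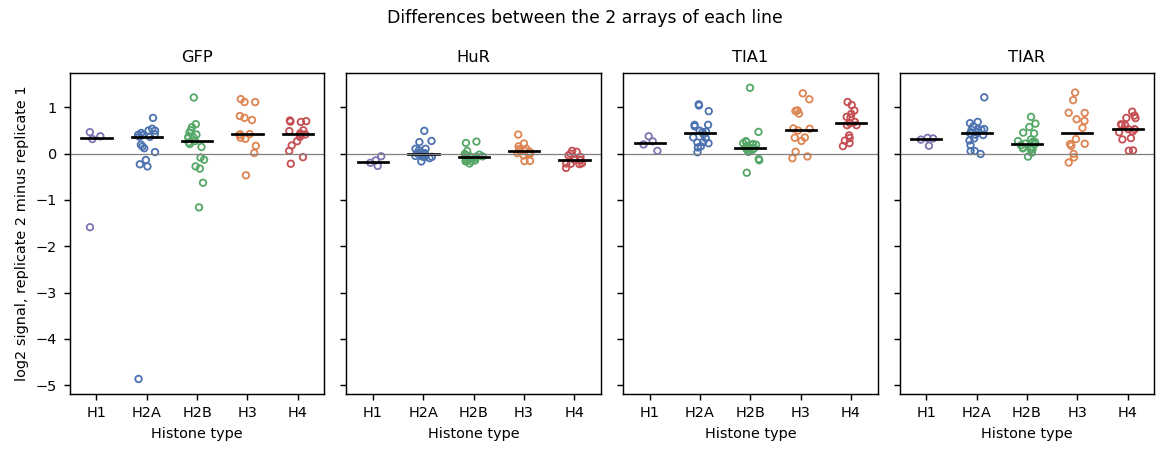
Difference in log2 signal between replicate 2 and replicate 1 (y axis) for the 70 histone probes well above background on all 8 arrays, by histone type (x axis) in each line. Bars are medians. Most points lie above 0 with TIA1, TIAR and GFP, and around 0 with HuR, and the lowest GFP point is HIST1H2AA.

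Genes that make or handle histones were examined from fixed lists. Of 25 genes for the processing and transcription of histone mRNA, a gene being counted where any of its probes was called, limma called 1 higher and 3 lower in TIA1 versus HuR, and 1 in each direction in TIAR versus HuR. Of all probes, 8.51% were called higher and 4.9% lower in the first comparison, and 7.07% and 3% in the second. These shares count probes and not genes. The gene called higher with TIA1 was SRRT, by a dimmer probe, while its brightest probe stayed under the 2-fold limit. CPSF3, the endonuclease that cuts histone pre-mRNA, read 1.90 and 1.95 with HuR, 0.36 and 0.18 with TIA1, and 0.76 and 0.76 with TIAR. It was lower in both lines, by -1.66 with TIA1 (adjusted p = 0.0027 from limma) and -1.16 with TIAR (adjusted p = 0.0058). With TIA1, MIF4GD, a partner of SLBP in translation, changed by -1.37 and NCBP1, of the cap-binding complex, by -1.14, while 1 of 3 SRRT probes was higher by 1.14 and the brightest by 0.71. CASP8AP2, a component of the histone locus body, was higher with TIAR (log2 fold change 1.07, adjusted p = 0.040).

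SLBP, which binds the stem-loop, read 4.31 and 4.31 with HuR, 4.90 and 4.78 with TIA1, and 4.75 and 4.83 with TIAR. It differed from HuR by 0.53 with TIA1 (adjusted p = 0.019 from limma) and 0.48 with TIAR (adjusted p = 0.028), under the 2-fold limit. NPAT, the coactivator of histone transcription, changed by 0.26 and 0.07 (adjusted p = 0.094 and 0.72).

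Of 20 DNA replication genes, which are active in the phase in which clustered histone genes are, limma called 3 in TIA1 versus HuR and 4 in TIAR versus HuR, all of them higher than with HuR, where 8.51% and 7.07% of all probes were called higher. Counting the brightest probe of each gene alone, these were 2 and 3 genes. The medians were 0.60 and 0.61, and in TIAR versus TIA1, where log2 fold changes ran from -0.40 to 0.68, the median was close to 0 (-0.00087), against -0.50 for the histone probes. The histone median was -0.23 without TIA1 2 and -0.24 without TIAR 1, and the difference between the 2 sets of genes was not tested. Against GFP the medians of the replication genes were 0.44 with TIA1, 0.37 with TIAR and -0.10 with HuR, and 0 of these genes were called. Relative to HuR, CDC6, which loads the replicative helicase, was higher by 1.37 with TIA1 (adjusted p = 0.0029 from limma) and 1.35 with TIAR (adjusted p = 0.0054). E2F1, a transcription factor of S phase genes, was higher than with HuR by 1.20 and 1.47. CDT1, the partner of CDC6, was higher by 1.30 with TIAR than with HuR (adjusted p = 0.0053). PCNA, the sliding clamp, was called in both with 1 of its 3 probes, at 1.12 and 1.04.

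Of 20 histone chaperone genes, 1 was called in each direction in TIA1 versus HuR, the higher one by a dimmer RBBP4 probe, and in TIAR versus HuR their log2 fold changes ran from -0.80 to 0.94 with no call. Of all probes, 8.51% were called higher and 4.9% lower with TIA1, and 7.07% and 3% with TIAR. IPO4, an importin for H3 and H4, changed by -1.28 with TIA1, and 1 of the 4 RBBP4 probes by 1.06, with the others between 0.15 and 0.26 and the brightest at 0.21. Among histone variants outside the clusters, 12 of 16 genes were tested, and in TIA1 versus HuR they ran from -0.39 to 0.36 with no call. With TIAR, H2BFM, a testis H2B, was higher by 1.29 against HuR (adjusted p = 0.013 from limma) and by 1.68 against TIA1 (adjusted p = 0.033). H2AFJ differed from HuR by 0.48 with its brighter probe. A dim H2AFJ probe was called lower but was well above background on 0 of the 2 TIAR arrays. Against the dimmest detected probe of each TIAR array, that probe was 1.28-fold lower. The brighter probe of H3F3B, a gene for the replacement histone H3.3, changed by 0.10 with TIAR against HuR, and its other probe by -0.99 against HuR and -1.29 against TIA1.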

How the data were processed

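Total RNA of the 4 FT293 lines was hybridized to 8 one-colour arrays, 2 per line. Per the file headers, the authors deposited scanner output whose processed signal is a background-subtracted, spatially detrended intensity. Their series table holds deposited log2 values after quantile normalization, and the submitters' notes name limma. Outlier spots were left out, log2 processed signals were centred on the array's 75th percentile, and replicate spots were averaged per probe. Limma 3.58.1 in R 4.3.3 compared each pair of lines on its 4 arrays. It was tested on simulated data. Alternatives were quantile normalization, normexp (offset 50), the authors' values, 2 other filters on dim probes, all 8 arrays in a single fit, the replicate number as a block, the methods' paired t-test, leaving out each array and, added after the values were seen, no fold minimum. The number of arrays limits the precision.

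Members and lists were chosen with earlier results of these data known. Named are histone genes with a called probe, HIST1H4K, genes of the lists with a probe called against HuR, SLBP and NPAT. A gene of a list counts as called where any of its probes was called; medians and ranges of lists use its probe with the highest mean signal, and other probes are given where they differ. Other histone genes named were chosen after their values were seen. RefSeq matched 81 of the 84 probes. A result on a further gene is not reported here. Where a line was not well above background, the fold was taken per array against the dimmest detected probe or the probe itself, whichever was brighter. Such a fold is not a strict bound, since an undetected probe can be brighter than the dimmest detected one. Plots were drawn with matplotlib.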

Additional observations from a re-analysis of the deposited data

How the results depend on the processing

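Counts of called histone probes depended on the arrays more than on the scaling. Main counts were 3 for TIA1 versus HuR, 6 for TIAR versus HuR, 4 for TIAR versus TIA1 and 0 for each comparison with GFP. Leaving out 1 array at a time gave 1 to 7, 2 to 17 and 0 to 1 for the first 3, 0 to 8 for TIA1 versus GFP and 0 to 7 for each of TIAR and HuR versus GFP. The methods' paired t-test gave 1, 2 and 4 calls unadjusted in the first 3 comparisons, 3 in TIAR versus GFP and 1 in HuR versus GFP, and 0 in all after Benjamini-Hochberg adjustment. Asking for signals well above background on all 4 arrays gave 2 calls in both TIAR versus HuR and TIAR versus TIA1, since probes that are dim in either line then drop out. All 8 arrays in a single fit gave 3 in TIAR versus HuR, 4 in TIAR versus GFP and 1 in HuR versus GFP, and no filter gave 0 in TIAR versus TIA1. No fold minimum gave 20 in TIA1 versus HuR, where 24.2% of all probes were higher and 17.3% lower. It gave 13 in TIAR versus HuR, where 18.1% of all probes were higher and 12.6% lower. For the other alternatives the share of all probes called was not counted, so their counts cannot be set against the whole array.

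The replicate number as a block took the count for TIAR versus TIA1 from 4 to 0 and left the counts of the other comparisons as they were. Nothing says that a number pairs the arrays, of which there are only 2 a line, and the deviations of same-numbered arrays correlated between -0.090 and 0.18 over 24959 probes. Of the 78 planned values for counts, 50 stayed within 1.5 times the main count and 28 moved. No log2 fold change of a named histone probe that had been called turned its sign (0 cases). The cause was not tested for any of the other changes.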
